A study of Homo sapiens with 6 samples.

Results

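Stitched clusters of H3K27ac peaks, stretches of chromatin in which 5 or more strong peaks lie close together, were measured in CCRF-CEM cells, an established T lymphoblast leukemia line. The 30000 peaks of largest −log10 p on chromosomes 1 to 22 and X of the parental control list were taken, peaks at most 10000 bp apart were joined, and joined regions of 5 or more peaks were kept. This gave 272 clusters among 23225 joined regions, of which 3974 held 2 to 4 peaks and 18979 held 1 peak. The clusters held 1730 of the 30000 peaks, which is 5.77%, and 2506296 bp of covered length, which is 6.90% of all covered length in that list.

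Cells of 6 groups were profiled by chromatin immunoprecipitation sequencing with an antibody to H3K27ac, with 1 library each. Cells in which SLFN11 was knocked out were given the solvent DMSO (knockout control), or camptothecin (CPT) at 100 nM for 2 h or 4 h. Parental cells, which the labels give as wild-type, received the same: DMSO (parental control), or CPT at 100 nM for 2 h or 4 h. The times follow the sample labels, whereas the protocol text of all 6 samples names 4 h of CPT and no other time. SLFN11 is a nuclear protein that halts stressed replication forks, and CPT traps topoisomerase I on DNA, so the series asked how the chromatin of cells with and without SLFN11 responds to replication stress. How the knockout was made, and whether it was 1 clone, is not given in the sources used here. The lists hold acetylation and no transcript or protein, so they do not check the loss of SLFN11.

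H3K27ac is the acetyl mark that histone acetyltransferases such as p300 and CBP place on nucleosomes beside active enhancers and promoters. Dense groups of marked elements, often called super-enhancers or stretch enhancers, are known to lie at genes that define a cell type, and in T cell leukemia at factors such as MYB and RUNX1. The rule used here is simpler than the usual one, which ranks stitched regions by signal. The clusters are therefore called by their number of peaks and nothing more.

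With 1 library per group there is no spread between replicates, so differences between libraries have no test and are given as values. A cluster's covered length is the number of its bases inside peaks of a library, counted over the 30000 strongest peaks of each list so that lists of different length are matched. Values given over all deposited peaks, or over peaks of −log10 q of at least 5, come from lists not matched in length. A cluster is called lower or higher where the covered lengths differ by 1.5 times or more. The parental control values chose the clusters, so they are a description, and every comparison with parental control leans towards lower values in the other library. Read depth is unknown, but the background pileup solved from the lists differed. This is the number of reads the peak caller took as chance level at a place. It was 0.699, 0.715 and 0.168 in knockout control, knockout CPT 2 h and knockout CPT 4 h, against 0.603, 0.506 and 0.570 in parental control, parental CPT 2 h and parental CPT 4 h. In the knockout CPT 4 h list 59.8% of deposited peaks carried the fold and p of a pileup of 1, so its treatment and its low pileup cannot be told apart.

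Gene positions on hg19, the build of the peak lists, came from a hand-written table rounded to 1 kb, since no hg19 annotation was used here. A cluster was counted at a gene where it overlapped the gene body or the 10 kb on either side. By this count 20 of 75 genes of T cells and T leukemia had a cluster, and 5 of them had 1 promoter entry in the RefSeq table (GRCh38.p14) and a start inside the cluster. The 300 bases that the table gives around these 5 starts are shown because a clustered domain there reaches over the promoter itself. Capitals mark a RUNX motif (TGTGGT or its reverse ACCACA) or a GATA motif (AGATAA or its reverse TTATCT).
CD38, chr4:15778078-15778377, plus strand: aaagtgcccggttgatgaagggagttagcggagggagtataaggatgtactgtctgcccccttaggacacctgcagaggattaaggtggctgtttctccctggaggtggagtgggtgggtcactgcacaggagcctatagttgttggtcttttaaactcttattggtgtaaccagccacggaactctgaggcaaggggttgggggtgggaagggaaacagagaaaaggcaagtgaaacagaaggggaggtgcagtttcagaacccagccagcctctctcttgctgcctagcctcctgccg
DNTT, chr10:96304184-96304483, plus strand: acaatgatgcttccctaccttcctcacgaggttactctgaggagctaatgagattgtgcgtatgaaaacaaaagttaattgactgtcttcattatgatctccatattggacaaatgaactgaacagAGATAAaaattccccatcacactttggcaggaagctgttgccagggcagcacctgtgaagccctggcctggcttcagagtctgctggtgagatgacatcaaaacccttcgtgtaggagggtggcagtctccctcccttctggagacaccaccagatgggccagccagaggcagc
LCP2, chr5:170297728-170298027, minus strand: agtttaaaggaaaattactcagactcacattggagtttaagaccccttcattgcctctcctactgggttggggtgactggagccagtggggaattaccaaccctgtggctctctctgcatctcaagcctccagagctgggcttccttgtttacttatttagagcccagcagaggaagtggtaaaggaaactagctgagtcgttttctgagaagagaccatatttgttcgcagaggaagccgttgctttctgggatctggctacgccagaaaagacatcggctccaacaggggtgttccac
LEF1, chr4:108166252-108166551, minus strand: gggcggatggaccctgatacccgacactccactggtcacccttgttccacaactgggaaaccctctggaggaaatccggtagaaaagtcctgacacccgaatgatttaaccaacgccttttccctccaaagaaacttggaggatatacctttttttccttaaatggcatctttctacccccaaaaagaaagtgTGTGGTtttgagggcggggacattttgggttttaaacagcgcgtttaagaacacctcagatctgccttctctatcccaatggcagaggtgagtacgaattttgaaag
PRKCQ, chr10:6580597-6580896, minus strand: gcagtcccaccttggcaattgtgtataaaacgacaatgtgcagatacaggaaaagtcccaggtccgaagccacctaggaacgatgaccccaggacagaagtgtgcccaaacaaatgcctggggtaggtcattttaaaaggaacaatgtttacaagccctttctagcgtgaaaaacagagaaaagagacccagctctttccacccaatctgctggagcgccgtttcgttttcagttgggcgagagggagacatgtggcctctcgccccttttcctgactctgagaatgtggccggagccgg

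The LEF1 window held 1 RUNX motif and the DNTT window 1 GATA motif, while the other three windows held neither on either strand. Of 35116 promoter windows of the same length in the table, 13.1% held the RUNX motif and 10.3% the GATA motif. A match is a description of these letters and shows no binding.

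At the start of CD38, an ectoenzyme on the surface of early lymphoid cells, the strongest peak within 1 kb had rank 110, 489 and 1839 in knockout control, 2 h and 4 h, against 140, 324 and 1399 in parental control, 2 h and 4 h. At the start of LCP2, which encodes the adaptor SLP-76 of T cell receptor signalling, the ranks were 1586, 2560 and 2164 in the knockout libraries and 1135, 1911 and 1348 in the parental ones. The start of LEF1, an HMG box factor of the WNT pathway, had ranks of 5241, 4545 and 2673 in knockout libraries and 4172, 4818 and 4934 in parental libraries. The starts of CD38, LCP2 and LEF1 were thus marked among the 30000 strongest peaks of all 6 lists.

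The start of PRKCQ, the kinase PKC-theta of T cell activation, had ranks of 1591, 1411 and 737 in knockout control, 2 h and 4 h, and of 1487, 1370 and 1762 in parental control, 2 h and 4 h. At DNTT, which encodes the terminal transferase of immature lymphocytes, the ranks were 10033 and 9944 in knockout control and knockout CPT 2 h, with none of the 30000 peaks there in knockout CPT 4 h, and 10703, 18161 and 12512 in the parental libraries. The DNTT start was therefore the weakest of the 5 in every list.

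The clusters ranged from 5 peaks, the number in 142 of them, to 19 peaks, and 20 clusters held 10 or more. Their span had a median of 30086 bp and a range of 8598 to 96002 bp. Covered length had a median of 8215.5 bp and a range of 2323 to 32205 bp, and it took a median of 26.6% of the span, so most of a cluster was gap. The strongest peak of a cluster had a median rank of 4317.5 in the list, and the weakest a median rank of 24985.5. Only 39 of the 272 clusters held one of the 1000 strongest peaks, and 158 held one of the 5000 strongest.

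Among the clusters with the least covered length just inside the limit of 5 peaks were those at chr3:30672457-30687374 in TGFBR2, a receptor of TGF-beta, with 2323 bp, and at chr3:111018216-111042400, with 2510 bp. Just outside it, the regions of 4 peaks with the most covered length were chr9:112202022-112231896, with 14752 bp, chr20:43271456-43302369, with 14694 bp, and chr12:51761748-51789389, with 13461 bp. The limit on peak number thus left out regions that were longer than many members.

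The peaks inside clusters were wider and of lower fold than peaks elsewhere. The median width was 1351.5, 1345 and 1325 bp inside clusters in knockout control, 2 h and 4 h, against 1090, 1133 and 684 bp elsewhere. In parental control, 2 h and 4 h it was 1284, 1281 and 1318 bp inside clusters and 1092, 922 and 1006 bp elsewhere. The median of the authors' fold over background was 3.21, 3.23 and 3.41 inside clusters in the knockout libraries, against 3.88, 3.92 and 3.44 elsewhere, and 3.14, 3.43 and 3.28 inside clusters in the parental libraries, against 3.83, 3.93 and 3.78 elsewhere. Regions of 2 to 4 peaks shared most of this width. In parental control their peaks had a median width of 1253 bp, against 1284 bp in clusters and 1012 bp in regions of 1 peak. The median fold was 3.57 in regions of 2 to 4 peaks, between 3.14 in clusters and 3.98 in regions of 1 peak. In 61 of 272 clusters the strongest peak was also the widest.

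Clusters were spread over all 23 chromosomes used, from 2 on chromosome 18 to 22 on chromosome 1. Per 1000 of a chromosome's strong peaks there were 14.7 clusters on chromosome X, 12.9 on chromosome 6, 12.4 on chromosome 14 and 3.58 on chromosome 18. Of the strong peaks of chromosome 14, 10.3% lay in clusters, beside 10.2% of those of chromosome X, 9.40% of those of chromosome 6 and 1.79% of those of chromosome 18. Chromosome 14 holds the immunoglobulin heavy chain locus and chromosome 6 the large histone gene cluster, and both held several of the clusters described next.

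The cluster with the most peaks, 19, lay at chr7:92303051-92395523 over CDK6, the kinase that drives cells through G1. Its covered length was 14652, 16233 and 2624 bp in knockout control, 2 h and 4 h, against 14554, 7324 and 14850 bp in parental control, 2 h and 4 h. Of the 10 clusters with the most peaks, this one kept the smallest fraction of its parental control length in parental CPT 2 h, and knockout CPT 4 h was lower still. A second CDK6 cluster of 6 peaks, chr7:92265375-92284577, had 7667, 6704 and 1641 bp in knockout libraries and 6684, 5573 and 6465 bp in parental libraries.

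At chr6:26156340-26252341, a cluster of 18 peaks lay over replication-dependent histone genes, among them H1-4, H2BC5 and H1-3, which supply histones in S phase. It had the largest covered length of all clusters in every library except knockout CPT 4 h. Its values were 31712, 29957 and 20408 bp in knockout control, 2 h and 4 h, and 32205, 23798 and 26358 bp in parental control, 2 h and 4 h. Histone genes of the same class resemble one another in sequence, and how reads that match several places were treated is not given in the sources used here. Knockout CPT 4 h kept more of this cluster than of CDK6 or MYB.

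MYB, a transcription factor of blood progenitors, had a cluster of 17 peaks at chr6:135529069-135598604. Its covered length was 17750, 18492 and 10926 bp in knockout control, 2 h and 4 h, against 20086, 12478 and 16067 bp in parental control, 2 h and 4 h. RUNX1, a transcription factor needed for blood stem cells and thymocytes, had 12 peaks at chr21:36320075-36400868. There the values were 18152, 17723 and 1403 bp in knockout libraries and 17686, 18441 and 17276 bp in parental libraries, so that 5 libraries lay close together and knockout CPT 4 h stood far below them. TCF7, the factor TCF-1 of early T cell commitment, had 8 peaks at chr5:133413671-133469678, with 25276, 25318 and 11045 bp in knockout libraries and 23875, 19536 and 18648 bp in parental libraries.

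**Figure D1:**
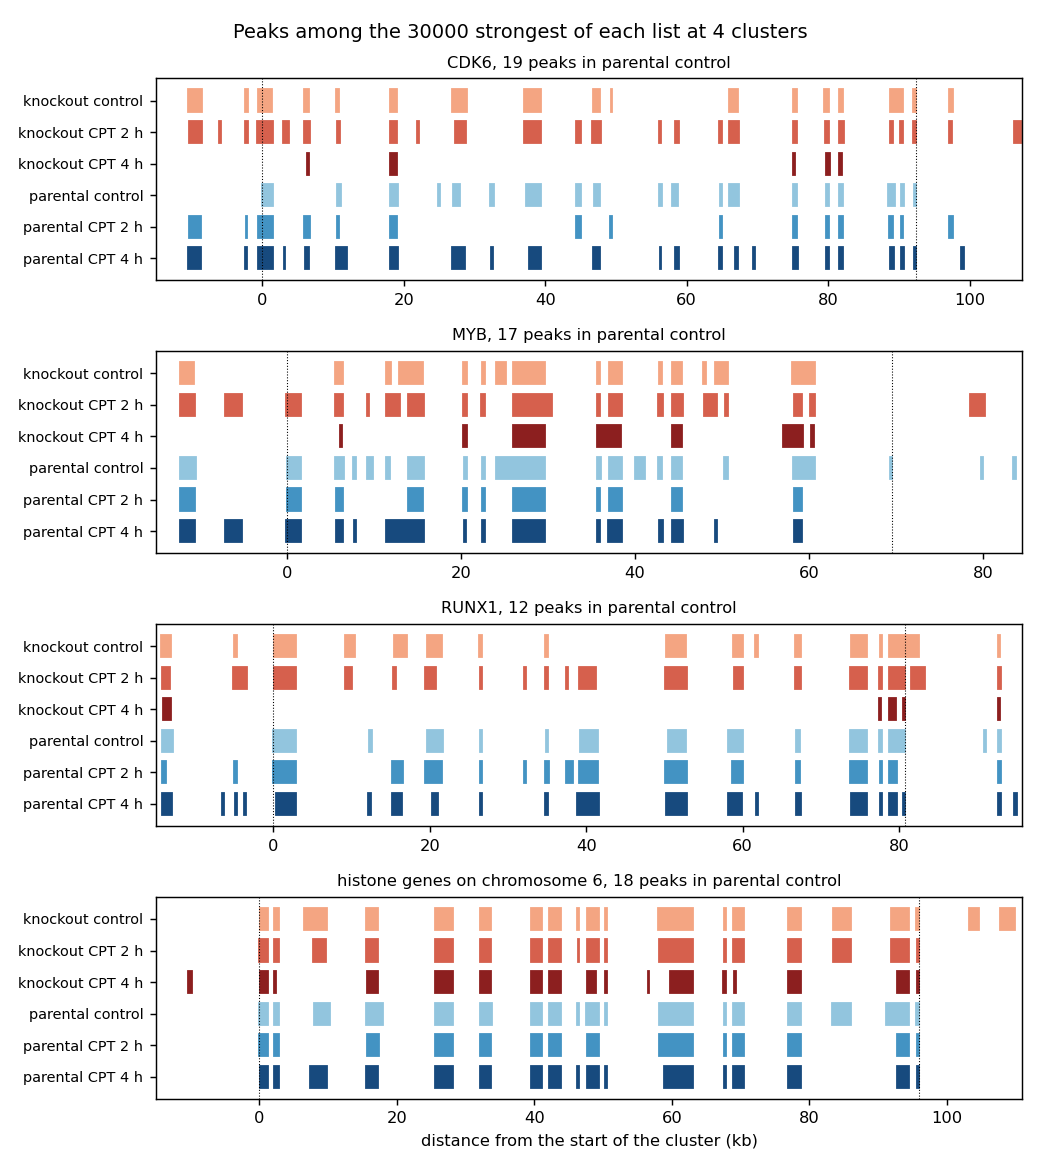
Position of each of the 30000 strongest peaks of the 6 lists (rows) against distance from the start of the cluster in kb, at the CDK6, MYB, RUNX1 and histone clusters. Dotted lines mark the ends of the cluster in parental control, and in the RUNX1 cluster knockout CPT 4 h has 3 short blocks near the right end, where its covered length is 1403 bp.

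A cluster of 16 peaks on the X chromosome, chrX:114959715-115005160, varied least among the 10 with the most peaks. Its covered length was 22552, 21901 and 21953 bp in knockout control, 2 h and 4 h, and 21729, 20347 and 23456 bp in parental control, 2 h and 4 h. No gene of the hand-written table lies there. Here knockout CPT 4 h did not stand apart. The peaks of this cluster were evenly spaced, with a median gap of 1661 bp and a largest gap of 1805 bp. No other cluster had so small a largest gap. Its widest peak made up 9.04% of its covered length, the lowest share of all clusters. Whether these peaks lie on repeated sequence was not tested, so the doubt about read placement holds here too.

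Other clusters of 13 to 15 peaks lay at TNFAIP8, SH2D1A, HDAC4 and the immunoglobulin heavy chain locus IGH, which were named after their values were seen. TNFAIP8 encodes a regulator of cell death, and its cluster of 15 peaks at chr5:118603736-118682128 had 19849, 20979 and 10337 bp in knockout libraries and 17973, 12350 and 16085 bp in parental libraries. SH2D1A encodes the signalling adaptor SAP of T and NK cells, and its cluster of 14 peaks at chrX:123480248-123539226 had 14236, 14631 and 5489 bp in knockout libraries and 13203, 10106 and 11380 bp in parental libraries. The strongest peak of the SH2D1A cluster ranked 2, 2 and 27 in the knockout lists and 2, 3 and 4 in the parental lists, among the very top of each.

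HDAC4, a class II histone deacetylase, had 13 peaks at chr2:240152071-240232650, with 21134, 22538 and 7589 bp in knockout libraries and 22380, 17835 and 21130 bp in parental libraries. At IGH, a locus that encodes antibody heavy chains and can undergo partial rearrangement in T cells, 8 separate clusters were counted. The one with 14 peaks, chr14:106748911-106830257, had 17027, 17456 and 8617 bp in knockout libraries and 21619, 13512 and 15744 bp in parental libraries. The one with 13 peaks, chr14:106552330-106610994, had 13166, 13020 and 6840 bp in knockout libraries and 12613, 12403 and 12902 bp in parental libraries. Many IGH segments also resemble one another in sequence, so the same doubt about read placement holds.

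Some clusters of fewer peaks covered as much. RPTOR, the mTORC1 subunit Raptor, had 8 peaks at chr17:78717001-78765060, with 20227, 23377 and 15625 bp in knockout control, 2 h and 4 h, and 21988, 19694 and 20760 bp in parental control, 2 h and 4 h. A cluster of 9 peaks at chrX:128865725-128917682 lay at SASH3, a lymphocyte signalling adaptor, and the neighbouring peptidase gene XPNPEP2, with 14942, 12009 and 9827 bp in knockout libraries and 20227, 16045 and 15543 bp in parental libraries. There all 3 knockout values lay below all 3 parental values. SLC27A1, a fatty acid transporter gene, and PGLS shared a cluster of 9 peaks at chr19:17598823-17667624, with 14870, 12171 and 9117 bp in knockout libraries and 18068, 16170 and 14737 bp in parental libraries, where the groups overlapped. The cluster of 8 peaks at OSM, the cytokine oncostatin M, and TBC1D10A, chr22:30653787-30705803, had 16576, 19079 and 14284 bp in knockout libraries and 18508, 15501 and 16356 bp in parental libraries.

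The T cell receptor beta locus TRB had 2 clusters. The one of 12 peaks, chr7:141988376-142047121, had 16141, 16642 and 8715 bp in knockout libraries and 15654, 13304 and 16698 bp in parental libraries. The one of 5 peaks, chr7:142494038-142511172, had 9587, 7103 and 4716 bp in knockout libraries and 8619, 7054 and 6082 bp in parental libraries, and its best peak ranked 202, 158 and 51 in the knockout lists and 275, 140 and 197 in the parental lists. At ERAP1, chr5:96142872-96160720, the best peak ranked 14, 4 and 6 in the knockout lists and 16, 22 and 25 in the parental lists, although its 5 peaks covered 5284 bp or less in every library. Covered length and best rank were thus separate measures of a cluster.

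The same rule applied to each other list gave 286, 349 and 58 clusters in knockout control, 2 h and 4 h, and 175 and 208 in parental CPT 2 h and 4 h, beside the 272 of parental control. The order of these 6 numbers was the order of the background pileup given above, and the part of depth in them was not tested. A cluster was counted as found again where a cluster of another list overlapped it. Of the 272 clusters, 175 were found again in knockout control, 196 in knockout CPT 2 h and 50 in knockout CPT 4 h, which is 64.3%, 72.1% and 18.4%. Found again in parental CPT 2 h and parental CPT 4 h were 135 and 157, which is 49.6% and 57.7%. Of each list's own clusters, those that met one of the 272 made up 60.8%, 55.3% and 86.2% in knockout control, 2 h and 4 h, and 76.6% and 74.5% in parental CPT 2 h and 4 h.

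In all 5 other lists 40 clusters were found again, and 48 in none. Without knockout CPT 4 h, 99 clusters were found in the other 4 lists. Size went with this count: 18 of 20 clusters of 10 or more peaks were found in those 4 lists, against 30 of 142 clusters of 5 peaks. The size is the peak number that chose the clusters, and being found again used the same limit of 5 peaks. A larger cluster can therefore lose more peaks and still be found, and the part of this limit was not tested. A cluster that was not found again had mostly slipped below 5 peaks and was not gone. In knockout control, 95 of 97 such clusters still held one of the 30000 strongest peaks, with a median covered length of 0.798 times that in parental control, and in parental CPT 2 h it was 135 of 137 with 0.711 times.

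**Figure D2:**
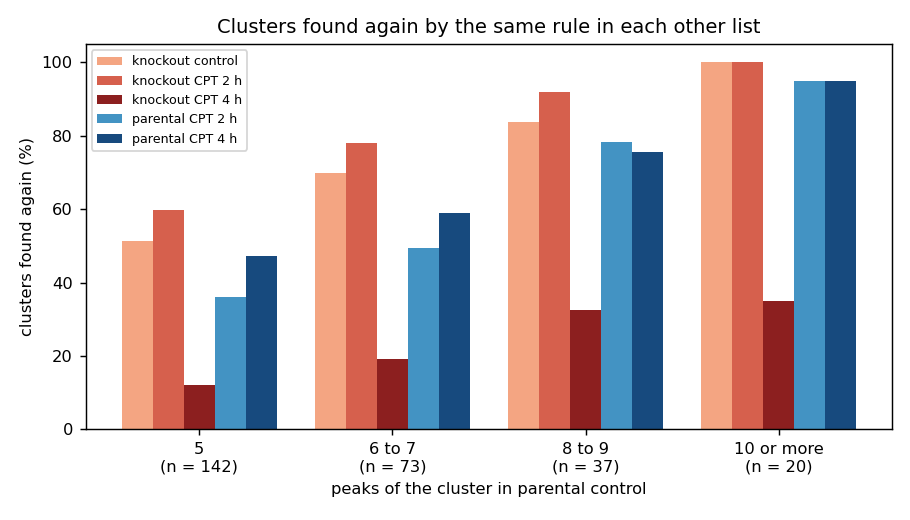
Percentage of clusters found again by the same rule in the 5 other lists (bars), by the number of peaks of the cluster in parental control, with the number of clusters under each group. For clusters of 10 or more peaks the bars reach 100% in knockout control and knockout CPT 2 h, 35% in knockout CPT 4 h and 95% in both treated parental lists.

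The strongest peak of a cluster was met most often in the other lists. It overlapped one of the 30000 strongest peaks in 98.9%, 97.8% and 89.7% of clusters in knockout control, 2 h and 4 h, and in 98.2% and 98.5% in parental CPT 2 h and 4 h. For the fifth strongest peak the shares were 71.0%, 76.1% and 29.4% in knockout control, 2 h and 4 h, and 56.3% and 62.9% in parental CPT 2 h and 4 h. This order rests on the −log10 p that chose the clusters, with a median rank of 4317.5 for the strongest peak and 19912 for the fifth. Of peaks of rank 1 to 5000 in regions of 1 peak, knockout control met 100% and knockout CPT 4 h 99.8%. The fall with order therefore cannot be told apart from rank. Among all deposited peaks, the fifth strongest still had a counterpart in 95.2%, 94.5% and 81.6% of clusters in the knockout libraries and in 89.7% and 94.5% in the treated parental ones. None of the 272 clusters lacked a deposited peak in any list.

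**Figure D3:**
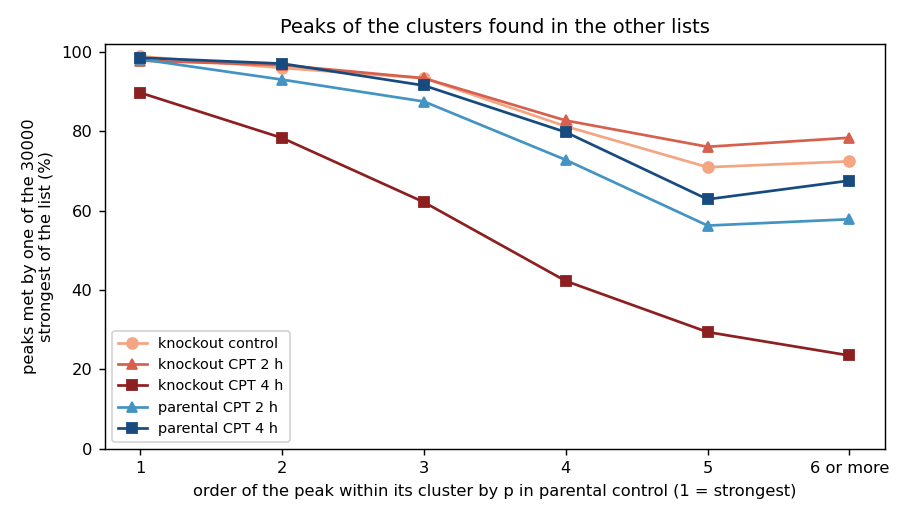
Percentage of the clusters' peaks that overlap one of the 30000 strongest peaks of each other list (lines), by the order of the peak within its cluster in parental control. The lines fall from left to right in all 5 lists up to the fifth peak, and knockout CPT 4 h lies lowest, at 29.4% for the fifth peak.

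Peaks in clusters were compared with peaks of like rank outside them. For peaks of rank 10001 to 15000, 98.7% of peaks in clusters had a counterpart among the 30000 of knockout control, against 96.9% in regions of 2 to 4 peaks and 96.7% in regions of 1 peak. In knockout CPT 4 h the shares at this rank were 57.4%, 55.7% and 65.5% for clusters, regions of 2 to 4 peaks and regions of 1 peak. For rank 15001 to 20000 they were 82.3%, 79.7% and 73.1% in knockout control and 21.7%, 28.4% and 43.7% in knockout CPT 4 h. Knockout CPT 4 h thus met peaks of clusters less often than peaks standing alone already at these middle ranks, and knockout control did not. For rank 25001 to 30000 the shares were 46.9%, 34.0% and 28.1% for clusters, regions of 2 to 4 peaks and regions of 1 peak in knockout control, 58.9%, 37.2% and 27.6% in knockout CPT 2 h, 27.1%, 23.9% and 26.8% in parental CPT 2 h, and 35.9%, 30.3% and 28% in parental CPT 4 h. In knockout CPT 4 h they were 11.5%, 12.1% and 28.7%. The weak peaks of clusters were also wider, with a median of 837.5 bp against 601.5 and 385 bp, and the part of width was not tested.

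Over all 272 clusters the covered length was 92.1%, 94.3% and 51.7% of the parental control sum in knockout control, 2 h and 4 h, and 77.8% and 84.3% in parental CPT 2 h and 4 h. For regions of 2 to 4 peaks these were 86.5%, 87.6% and 50.6% in the knockout libraries and 74.7% and 80.8% in the treated parental ones. The clusters' share of each list's covered length was 6.28%, 6.27% and 4.90% in knockout control, 2 h and 4 h, and 6.90%, 6.07% and 6.22% in parental control, 2 h and 4 h. Covered length over all regions of a list was 36751073, 37719370 and 26456146 bp in the knockout lists and 36318734, 32121197 and 34010253 bp in the parental lists, so the lists of parental CPT 2 h and knockout CPT 4 h covered the least in total for their genotypes.

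In parental cells, CPT at 2 h against control gave a lower covered length in 75 of 272 clusters, 27.6%, and a higher one in 0. Over all joined regions 37.4% were lower and 0.112% higher, and over regions of 2 to 4 peaks 36.2% were lower, so the share in clusters was below the background. The median ratio was 0.789 in clusters and 0.788 in regions of 2 to 4 peaks. At 4 h against control 45 clusters were lower, 16.5%, and 0 were higher, where the background was 34.4% lower and 0.151% higher. Regions of 1 peak, which make up most of the background, cannot gain covered length within their own bounds when compared with parental control.

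Among clusters above 0 bp in both libraries, the smallest ratio at 2 h was in ETV6, an ETS family repressor needed for blood stem cells, at chr12:11862642-11894607. Its covered length was 386 bp in parental CPT 2 h and 2590 bp in parental CPT 4 h, against 6163 bp in parental control. In knockout control, 2 h and 4 h the same bases held 4364, 5592 and 0 bp. The other 2 ETV6 clusters did not share the drop: the one of 12 peaks at chr12:11918697-11968018 had 9973 and 10959 bp in parental CPT 2 h and 4 h, against 11389 bp in parental control, and the one of 5 peaks at chr12:11801706-11827983 had 6658 and 5480 bp, against 6081 bp.

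PIP4K2A, a phosphoinositide kinase gene, had 391 and 1133 bp in parental CPT 2 h and 4 h at chr10:22956847-22972469, against 2579 bp in parental control. TOX, an HMG box factor of thymocyte development, had 1184 and 3210 bp at chr8:59952457-59981758, against 5295 bp. A cluster of 6 peaks at chrX:65082546-65123173 held none of the 30000 peaks in parental CPT 2 h and 3922 bp in parental CPT 4 h, against 6983 bp in parental control, although its best peak in the full 2 h list had rank 37903. As a ratio, the rises of covered length were at most 1.10 at 2 h and 1.22 at 4 h, in these clusters: PTP4A2, a phosphatase gene, had 6721 bp in parental CPT 2 h against 6090 bp in parental control, and GNAQ, a G protein subunit, had 7048 bp in parental CPT 4 h against 5759 bp.

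Lower at both times against parental control were 31 clusters, 11.4%, beside 27% of all joined regions and 22.1% of regions of 2 to 4 peaks. Of the 31, 10 were also lower in both treated parental libraries than in both knockout control and knockout CPT 2 h. That is 3.68% of clusters, beside 3.66% of all joined regions, so it is not a result about the clusters. Apart from ETV6 these lay at DIS3L2, SSBP2, HBS1L, APBB1IP and LIPC and at 4 places with no gene of the table. At DIS3L2, an RNA exonuclease gene, the values were 8855, 8863 and 3479 bp in knockout control, 2 h and 4 h, against 8483, 5566 and 4813 bp in parental control, 2 h and 4 h. At LIPC, hepatic lipase, they were 11931, 12720 and 3942 bp in the knockout libraries and 10669, 6453 and 4517 bp in the parental ones. Higher at both times than parental control were 0 clusters, beside 0.0301% of all joined regions.

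Parental CPT 4 h against parental CPT 2 h uses no value that chose the clusters. Here 5 of 272 clusters were lower, 1.84%, and 24 higher, 8.82%, where the background was 10.1% lower and 13.9% higher. The cluster at chrX:65082546-65123173 had 3922 bp at 4 h against none at 2 h. Among clusters above 0 bp at both times ETV6, PIP4K2A and TOX had the largest ratios, with values given above. The smallest ratio was at chr15:62410711-62433810, with 865 bp at 4 h against 1999 bp at 2 h, followed by chr7:151125561-151154070, with 2403 bp against 4959 bp. Over all deposited peaks the direction at ETV6 and at these 2 places turned round, with log2 ratios of −0.093, 0.13 and 0.016. The median ratio was 1.06 in clusters and 1.03 in regions of 2 to 4 peaks, and parental CPT 2 h covered less in all and had the lower background pileup.

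In knockout cells, CPT at 2 h against control gave 4 of 270 clusters lower, 1.48%, and 8 higher, 2.96%. The background was 9.72% lower and 9.23% higher, and the median ratio was 1.02 in clusters. With clusters chosen by the same rule in knockout control, 16 of 286 were lower, 5.59%, and 0 higher, with a median ratio of 0.958, so the balance of lower and higher followed the library that chose them. The largest ratio was at chr9:10999-38090, near the end of chromosome 9, with 8450 bp in knockout CPT 2 h against 3561 bp in knockout control. It was followed by a RHOH cluster, chr4:40233069-40267750, with 11887 bp against 7006 bp, and by TOX with 5231 bp against 3134 bp. The smallest ratios were at chr5:32503691-32533083, with 4231 bp against 7142 bp, at the chemokine receptor-like gene CCRL2, with 2440 bp against 3764 bp, and at LAIR2, an immune receptor gene, with 4688 bp against 7141 bp. Other choices of peaks turned the direction at 3 of these: the log2 ratio at TOX was −0.023 over all deposited peaks, that at LAIR2 was 0.20 with peaks of −log10 q of at least 5, and that at RHOH was −1.16 with peaks ranked by fold. By 1.5 times or more in opposite directions at 2 h against the control of the same genotype went 2 of the 270 clusters above 0 bp in knockout control, 0.741%, beside 1.74% of all joined regions and 4.02% of regions of 2 to 4 peaks. The parental ratio in this count leans towards lower, since parental control chose the clusters.

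Knockout CPT 4 h against knockout control gave 176 of 270 clusters lower, 65.2%, and 0 higher, where 34.4% of all joined regions were lower and 8.05% higher. The median ratio was 0.550 in clusters and 0.641 in regions of 2 to 4 peaks. The covered length of CYTH1, a guanine nucleotide exchange factor gene, was 0 bp in knockout CPT 4 h against 10312 bp in knockout control. The ETV6 cluster described above was likewise at 0 bp, against 4364 bp. Among clusters above 0 bp in both libraries, the one at chr3:18113844-18140759 had 252 bp against 4135 bp, GNAQ had 506 bp against 7506 bp, and VAV3, an exchange factor of receptor signalling, had 488 bp against 7102 bp at chr1:108428898-108470720, although over all deposited peaks the log2 ratio at VAV3 was 0.30. The deposited lists were not matched in length, with 402427 peaks on chromosomes 1 to 22 and X in knockout CPT 4 h and 267480 in knockout control. At the other end, ERAP1, a peptide-trimming enzyme gene, kept 5284 bp against 5163 bp, and chr17:73105375-73138438 had 5935 bp against 4100 bp. Against all 5 other libraries, 116 clusters were lower in knockout CPT 4 h, 42.6%, beside 15.8% of all joined regions and 31.3% of regions of 2 to 4 peaks.

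The best peak of a cluster held its rank better than the covered length did in that library. By best rank, called at 2 times, 47 of 272 clusters were weaker in knockout CPT 4 h than in knockout control, 17.3%, and 42 stronger, 15.4%, while over all joined regions 32.2% were weaker and 12.9% stronger. Parental CPT 2 h against parental control had 17 weaker, 6.25%, and 10 stronger, 3.68%, where the background was 14.7% weaker and 1.81% stronger. Parental CPT 4 h had 26 weaker and 4 stronger than parental control, against backgrounds of 14% and 1.65%, and 14 weaker and 1 stronger than parental CPT 2 h, against backgrounds of 6.29% and 6.85%. Knockout CPT 2 h had 6 weaker and 14 stronger than knockout control, where the background was 5.92% in each direction, and 12 weaker and 19 stronger than parental CPT 2 h, against 8.03% and 8.56%. Knockout control had 16 weaker and 9 stronger than parental control, against 14.9% and 1.42%, and knockout CPT 4 h had 30 weaker and 53 stronger than parental CPT 4 h, against 32.9% and 13%. The comparisons with knockout CPT 4 h thus held the most clusters that changed best rank by 2 times, in both directions. The number of clusters with one of the 1000 strongest peaks of the list was 37, 40 and 47 in knockout control, 2 h and 4 h, and 39, 41 and 35 in parental control, 2 h and 4 h.

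Knockout control against parental control gave 25 of 272 clusters lower, 9.19%, and 0 higher, where the background was 30.9% lower and 0.263% higher. When the clusters were chosen by the same rule in knockout control instead, 0.350% of those 286 were lower and 13.3% higher, so the direction followed the library that chose them. Among clusters above 0 bp in both libraries, the smallest ratios were at MED9, a Mediator subunit gene, with 2617 bp in knockout control against 6844 bp in parental control, and at chr21:37522269-37553894, with 2816 bp against 6270 bp, where the log2 ratio over all deposited peaks was 0.37. The largest was PTP4A2, with 8591 bp against 6090 bp.

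One cluster was lower in knockout control and knockout CPT 2 h than in all 3 parental libraries, 0.368% of clusters, beside 1.81% of all joined regions. It lay in IGH at chr14:106345399-106380973 and held 0, 0 and 0 bp in knockout control, 2 h and 4 h, against 8022, 2155 and 4342 bp in parental control, 2 h and 4 h. Its best peak ranked 38601, 45087 and 81447 in the knockout lists and 17688, 20243 and 26948 in the parental lists, so weaker deposited peaks remained in the knockout lists. The other 7 IGH clusters were covered in all 6 libraries. No cluster was higher in knockout control and knockout CPT 2 h than in all 3 parental libraries, beside 0.0388% of all joined regions.

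Knockout CPT 2 h against parental CPT 2 h gave 3 of 271 clusters lower, 1.11%, and 58 higher, 21.4%. Over all joined regions 9.58% were lower and 16.5% higher, and over regions of 2 to 4 peaks 21.2% were higher, a share near that of the clusters. The cluster at chrX:65082546-65123173 had 4618 bp against 0 bp. Among clusters above 0 bp in both libraries the largest ratios were those of ETV6, with 5592 bp against 386 bp, TOX, with 5231 bp against 1184 bp, and PIP4K2A, with 1348 bp against 391 bp. The lower clusters were at CCRL2, with 2440 bp against 3834 bp, at TGFBR2, with 983 bp against 1497 bp, and the IGH cluster at 0 bp against 2155 bp. Over all deposited peaks the direction turned round at CCRL2 and TGFBR2, with log2 ratios of 0.22 and 0.30, and with peaks of −log10 q of at least 5 that of CCRL2 was 1.01. Parental CPT 2 h had the lower pileup of the pair, and its part in the count was not tested.

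Knockout CPT 4 h against parental CPT 4 h gave 150 of 272 clusters lower, 55.1%, and 0 higher, where the background was 32.6% lower and 8.89% higher. CYTH1, the IGH cluster at chr14:106345399-106380973 and ETV6 were at 0 bp, against 7495, 4342 and 2590 bp. Among clusters above 0 bp in both libraries RUNX1 had one of the 3 smallest ratios, with 1403 bp against 17276 bp. ERAP1, with 5284 bp against 4427 bp, and PRKAR1B, a protein kinase A subunit gene, with 12853 bp against 10879 bp, had the largest ratios.

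**Figure D4:**
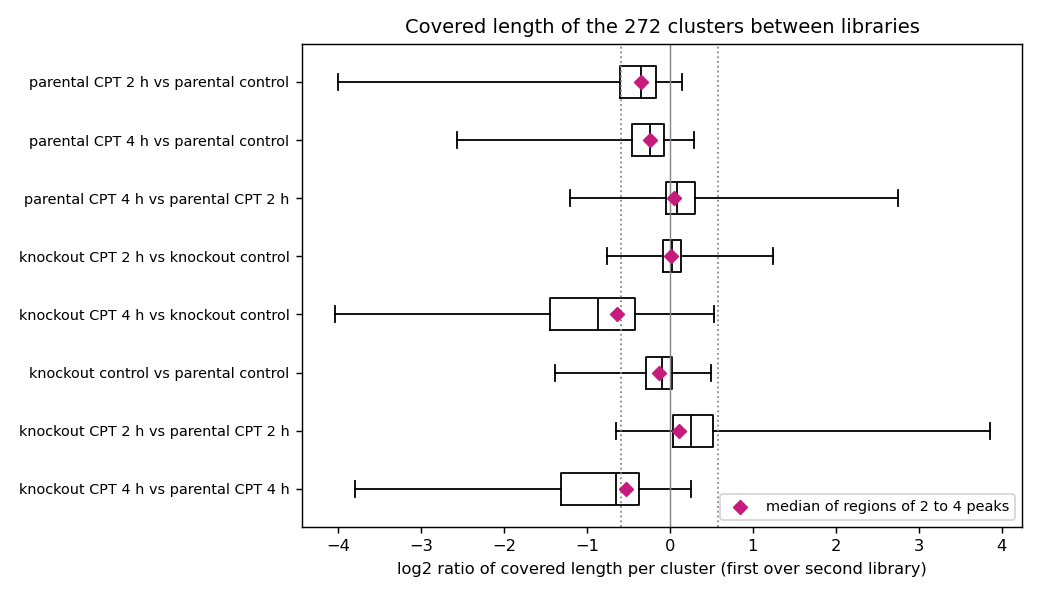
Log2 ratio of covered length per cluster for 8 comparisons, first library over second: boxes show the middle of the distribution between its quartiles with the median as a line, whiskers reach the lowest and highest cluster above 0 in both libraries, and diamonds mark the median of regions of 2 to 4 peaks. Dotted lines mark 1.5 times lower and higher, and the box of knockout CPT 4 h over knockout control has its median at −0.86.

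The clusters were set against gene lists. Of the 75 T cell genes, 20 had a cluster and 74 had any of the 30000 parental control peaks, the exception being NRARP. Of 31 genes of B cells, myeloid cells, erythroid cells and tissues outside blood, 1 had a cluster, the B cell receptor gene CD79A, and 16 had a peak. PAX5, MS4A1, MPO, CSF1R, HBB, ALB and APOB, which define other cell types, had none. Of 15 housekeeping genes 0 had a cluster and 15 had a peak, and of 17 immediate early genes 2 had a cluster and 16 a peak, with none at FOS. Joined regions of 2 or more peaks were more widely shared. They lay at 56 of the 75 T cell genes and 7 of the 31 genes of other cell types. Of housekeeping genes 7 of 15 had one, and of immediate early genes 11 of 17. The T cell genes were longer, with a median of 34 kb, against 8 kb for genes of other cell types, 11 kb for housekeeping genes and 4 kb for immediate early genes, and a longer gene has more room for a cluster. The part of length was not tested.

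Counted in every list by the same rule, 21, 27 and 4 T cell genes had a cluster in knockout control, 2 h and 4 h, and 20, 15 and 18 in parental control, 2 h and 4 h. In at least 1 list 31 genes had one, and 44 had none in any. Among those 44 were the T cell genes GATA3, BCL11B, NOTCH1, TAL1, CD3D, CD3E, CD3G, CD2, CD7, LCK, PTCRA and IL7R. RHOH, CDK6 and CCND3 had a cluster in all 6 lists, and 11 genes, these 3 among them, had one in the 5 lists other than knockout CPT 4 h. SATB1, IKZF1, CD4, CXCR4, ARID5B and CD69 had one in a knockout list and in no parental list, with 5 or 6 peaks each, next to the limit. GFI1 and CD8A had one in parental CPT 4 h alone, with 6 and 5 peaks.

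Among transcription factors, ETS1, a lymphoid ETS factor, had 9 peaks at chr11:128335649-128372894, with 10731, 11224 and 4048 bp in knockout control, 2 h and 4 h, and 10624, 9956 and 11565 bp in parental control, 2 h and 4 h. ELF1, another ETS factor, had 6 peaks and 5603, 6778 and 1001 bp in knockout libraries, against 6468, 2309 and 4639 bp in parental libraries. ERG, an ETS factor of blood stem cells, had 7703, 9303 and 4702 bp in knockout libraries and 7799, 6865 and 6150 bp in parental libraries. ELF1 was thus lower in parental CPT 2 h than in both other parental libraries by more than 1.5 times, and ETS1 and ERG were not.

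LEF1 had 2 clusters. The one at its start, chr4:109078315-109108049, had 5781, 5573 and 4609 bp in knockout libraries and 6421, 5420 and 5727 bp in parental libraries, while the one downstream, chr4:108950061-108973334, had 8000, 8002 and 1408 bp in knockout libraries and 8208, 6683 and 8010 bp in parental libraries. BACH2, a repressor that restrains lymphocyte activation, had 4061, 3647 and 3677 bp in knockout libraries and 5503, 3956 and 4103 bp in parental libraries, and its cluster was found again in 0 of the other lists. The second TOX cluster, chr8:59715669-59728262, had 2639, 3503 and 520 bp in knockout libraries and 3034, 3073 and 2770 bp in parental libraries, with no drop at 2 h in parental cells.

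Among signalling genes, RHOH, a GTPase of lymphocytes, had a cluster of 11 peaks at chr4:40190157-40218112 with 10629, 9418 and 5621 bp in knockout libraries and 12997, 13807 and 13423 bp in parental libraries. Its values were lower in all 3 knockout libraries than in all 3 parental ones, by less than 1.5 times outside 4 h. The second RHOH cluster, chr4:40233069-40267750, did not share this order. It had 7006, 11887 and 2412 bp in knockout libraries and 10509, 9520 and 10834 bp in parental libraries. LCP2 had 8 peaks at chr5:169687373-169746802, with 10130, 12540 and 6903 bp in knockout libraries and 14665, 8646 and 9840 bp in parental libraries. CCND3, the D cyclin that partners CDK6, had 16923, 19104 and 12606 bp in knockout libraries and 16847, 17355 and 15271 bp in parental libraries, the smallest ratio of highest to lowest value among the 10 T cell clusters of most covered length. The PRKCQ cluster at the gene's start had 7188, 8076 and 2939 bp in knockout libraries and 7169, 4828 and 7152 bp in parental libraries, and the second had 5286, 4522 and 1870 bp in knockout libraries and 5669, 3581 and 5287 bp in parental libraries. FYB1, an adaptor of T cell adhesion, had 3723, 3192 and 836 bp in knockout libraries and 3704, 1799 and 2381 bp in parental libraries.

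Among surface and enzyme genes, CCR9, a chemokine receptor that guides T cells to thymus and gut, had 8 peaks at chr3:45903593-45935996, with 9454, 12048 and 4742 bp in knockout libraries and 9268, 7291 and 7133 bp in parental libraries. DNTT had 9356, 9068 and 5446 bp in knockout libraries and 9295, 8105 and 8863 bp in parental libraries. CCR7, a lymph node homing receptor, had 5963, 9664 and 5096 bp in knockout libraries and 7732, 8061 and 7369 bp in parental libraries. In CCR9 and CCR7 knockout CPT 2 h had the highest value of the 6. CD38 had 5386, 6169 and 2258 bp in knockout libraries and 6323, 3455 and 5198 bp in parental libraries, and CD1A, a lipid-presenting molecule of cortical thymocytes, had 4466, 4282 and 3711 bp in knockout libraries and 4852, 3210 and 4041 bp in parental libraries. CD38 was lower in parental CPT 2 h than in the 4 other libraries outside knockout CPT 4 h by 1.5 times or more, and so were 18 other clusters, 6.99% in all, beside 4.76% of all joined regions and 8.05% of regions of 2 to 4 peaks. Lower in parental CPT 4 h alone by the same measure were 4 clusters, 1.47%, and higher 0, where the backgrounds were 2.92% and 0.0474%. In knockout control alone 0 clusters were lower and 0 higher, beside 1.86% and 0.0904% of all joined regions. In knockout CPT 2 h alone TGFBR2 was lower and the cluster near the end of chromosome 9 higher, beside 2% and 0.108% of all joined regions.

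**Figure D5:**
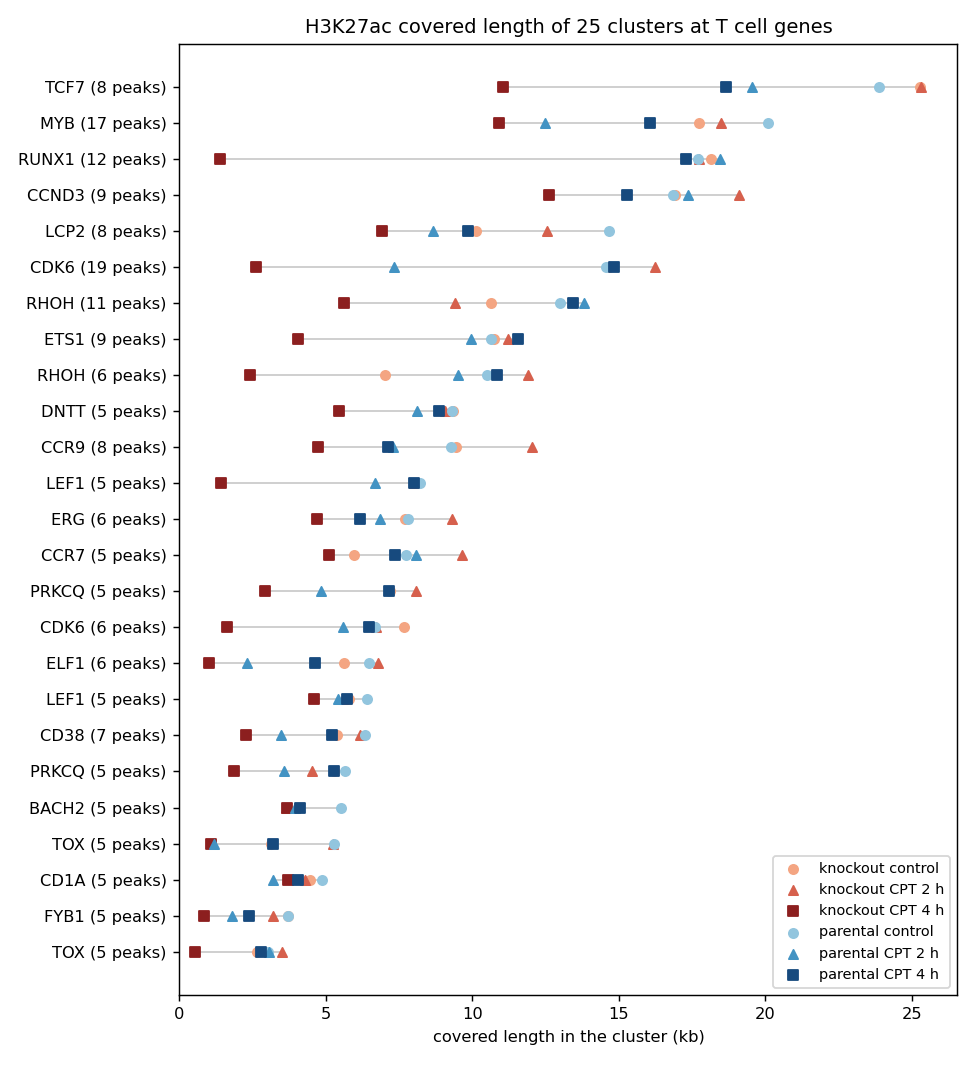
Covered length in kb of the 25 clusters at T cell genes (rows, with the number of peaks in parental control) in the 6 libraries (points, knockout in red and parental in blue). Knockout CPT 4 h has the lowest point in most rows, such as RUNX1 at 1403 bp, and parental CPT 2 h lies apart from the other parental points at CDK6, with 7324 bp.

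The 25 clusters at T cell genes were set beside the others. In parental CPT 2 h against control 9 of 25 were lower, 36%, against 26.7% of the others and 37.4% of all joined regions. Their median ratio was 0.814, though, against 0.788 for the others. In parental CPT 4 h against control the order was the other way, with 2 of 25 lower, 8%, against 17.4% of the others and 34.4% of all joined regions. In knockout control against parental control 2 of 25 were lower, 8%, against 9.31% of the others and 30.9% of all joined regions. In knockout CPT 2 h against parental CPT 2 h 7 of 25 were higher, 28%, against 20.7% of the others and 16.5% of all joined regions. In knockout CPT 4 h against knockout control 19 of 25 were lower, 76%, against 64.1% of the others and 34.4% of all joined regions. Against parental CPT 4 h it was 17 of 25, 68%, against 53.8% and 32.6%. Their median best rank in parental control was 5491, against 4241 for the other clusters.

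Among immediate early genes, whose transcription rises within minutes of a stimulus, JUNB and BTG2 had clusters. JUNB, a subunit of AP-1, had 6 peaks at chr19:12879987-12918288, with 8893, 10334 and 8017 bp in knockout control, 2 h and 4 h, and 8862, 9071 and 9449 bp in parental control, 2 h and 4 h, and was found again in all 5 other lists. BTG2, an antiproliferative gene induced by p53, had 6 peaks at chr1:203236556-203276578, with 5688, 6216 and 2174 bp in knockout libraries and 9665, 5681 and 9566 bp in parental libraries. JUNB differed by less than 1.5 times between any 2 libraries, and BTG2 was lower than in parental control by 1.5 times or more in every library but parental CPT 4 h. CD79A had 8833, 8887 and 6411 bp in knockout libraries and 9013, 8768 and 8665 bp in parental libraries.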

How the data were processed

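The lists were broadPeak files of hg19 made with MACS2 2.1.2, per the labels and the submitters' processing notes, which further list Picard 2.9.2, SAMtools 1.8, BWA 0.7.17, Trimmomatic 0.39 and Trim Galore 0.6.2 with no order. For the settings and for the control that MACS2 used the labels name nothing. The deposited columns hold a score, a fold over background (a ratio), a −log10 p-value and a −log10 q-value for each peak, which the authors called in each library. From them the peaks on chromosomes 1 to 22 and X were ranked by −log10 p, the 30000 first were kept per list, and covered length and best rank were measured in Python 3.11.15 with numpy 2.4.6 and pandas 2.3.3. The peak lists held 174843 to 410176 peaks. Read depth is unknown; the background pileup was solved from the fold and p that the largest number of peaks in a list share.

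Clusters were called lower or higher at 1.5 times, and ranks at 2 times. The measurement was checked on simulated data. With 1 library per group no test was run. Members and gene lists were chosen with earlier results of these data known. The clusters named were the 10 with the most peaks, the 10 of largest covered length, for each of 8 comparisons the 3 of largest and of smallest ratio and the 3 largest at 0 in one library, and those at listed genes, not all of which are printed, and 1 of which is not reported here. Of 180 genes in the hand-written hg19 tables, 42 were added after values were seen. All 180 matched a RefSeq symbol on the same chromosome, 160 within 5 kb in length. Promoter sequences came from RefSeq GRCh38.p14.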

Additional observations from a re-analysis of the deposited data

Results flagged for a closer look

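At 2 h of CPT the covered length moved in opposite directions in the 2 genotypes, by 1.5 times or more in each, at 2 of the 270 clusters that were above 0 bp in knockout control, 0.741%. The share was 1.74% over all joined regions and 4.02% over regions of 2 to 4 peaks, so it was lower in clusters. At TOX, chr8:59952457-59981758, the ratio to control was 1.67 in knockout cells, with 5231 bp at 2 h against 3134 bp in control, and 0.224 in parental cells, with 1184 bp at 2 h against 5295 bp in control. At chr17:73105375-73138438 it was 1.53 in knockout cells, with 6274 bp against 4100 bp, and 0.623 in parental cells, with 4459 bp against 7155 bp. The parental control values that chose the clusters are the base of the parental ratios, which therefore lean towards lower. Over all joined regions 303 were lower in parental and higher in knockout cells, and 6 went the other way. The second TOX cluster, chr8:59715669-59728262, had 3073 bp in parental CPT 2 h against 3034 bp in parental control. The difference was not tested, since each value comes from 1 library. Over all deposited peaks the knockout log2 ratio at TOX was −0.023, and with peaks of −log10 q of at least 5 it was below 0 too.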

How the results depend on the processing

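Of the alternative values of the main counts, 63 stayed near the value reported and 75 moved. Joining at 5000 bp left 63 clusters and ranking by fold 104. Ranking by fold, 33.7% were found again in knockout control and 24% in parental CPT 2 h. In knockout CPT 4 h 11.1% were found again when joined at 5000 bp and 10.0% with 10 or more peaks.

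The lists of all deposited peaks on chromosomes 1 to 22 and X were not matched in length. They held 267480, 218105 and 402427 peaks in knockout control, 2 h and 4 h, and 171713, 177354 and 178140 in parental control, 2 h and 4 h. With all deposited peaks the clusters' share of covered length was 1.39%, 1.69% and 1.18% in knockout control, 2 h and 4 h, and 2.17%, 1.93% and 1.99% in parental control, 2 h and 4 h. Fewer clusters were then called: parental CPT 2 h against control 4.78% lower, parental 4 h against control 1.10% lower, parental 4 h against 2 h 0% lower and 0.735% higher, knockout 2 h against control 0.368% lower and 0.368% higher, knockout 4 h against control 14% lower and 1.47% higher, knockout control against parental control 0% lower and 0.368% higher, knockout 2 h against parental 2 h 0% lower and 3.31% higher, knockout 4 h against parental 4 h 8.09% lower and 2.94% higher.

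The lists of peaks of −log10 q of at least 5 were not matched in length either. They held 14457, 15215 and 5467 peaks in knockout control, 2 h and 4 h, and 13794, 12656 and 12883 in parental control, 2 h and 4 h. With peaks of −log10 q of at least 5, the changed shares were 1.87% higher for parental 2 h against control, 1.5% higher for parental 4 h against control, 5.84% lower for parental 4 h against 2 h, 5.62% lower and 10.1% higher for knockout 2 h against control, 8.96% higher for knockout control against parental control, 35.2% higher for knockout 2 h against parental 2 h, and 86.9% lower and 1.19% higher for knockout 4 h against parental 4 h.

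With peaks ranked by fold they were 7.09% higher for parental 2 h against control, 8.96% higher for parental 4 h against control, 5.99% lower and 19.5% higher for parental 4 h against 2 h, 4.96% lower and 9.16% higher for knockout 2 h against control, 30.9% lower and 22.7% higher for knockout 4 h against control, 20.6% lower and 3.75% higher for knockout control against parental control, 10.2% lower for knockout 2 h against parental 2 h, and 29.5% lower and 17% higher for knockout 4 h against parental 4 h.

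Joined at 5000 bp, they were 0% lower and 3.17% higher for parental 4 h against 2 h, 1.61% higher for knockout 2 h against control, 4.76% lower for knockout control against parental control, and 0% lower and 11.3% higher for knockout 2 h against parental 2 h. With 10 or more peaks, they were 0% lower for parental 4 h against control, 0% lower and 15% higher for parental 4 h against 2 h, 0% lower and 0% higher for knockout 2 h against control, 0% lower for knockout control against parental control, 0% lower for knockout 2 h against parental 2 h, and 85.0% lower for knockout 4 h against parental 4 h. With clusters chosen in knockout control, an alternative added after seeing the data, they were 1.76% higher for parental 2 h against control, 2.45% higher for parental 4 h against control, 3.51% lower for parental 4 h against 2 h, 5.59% lower and 0% higher for knockout 2 h against control, 0.350% lower and 13.3% higher for knockout control against parental control, 33.0% higher for knockout 2 h against parental 2 h, and 1.40% higher for knockout 4 h against parental 4 h. With 10 or more peaks, 4 T cell genes, 0 genes of other cell types and 0 immediate early genes had a cluster, and within 50 kb 2 genes of other cell types did.

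Named clusters reversed in log2 ratio over all deposited peaks as follows: for parental 4 h against control chr7:151125561-151154070 0.22, for parental 4 h against 2 h ETV6 −0.093, chr15:62410711-62433810 0.13 and chr7:151125561-151154070 0.016, for knockout 2 h against control TOX −0.023, for knockout 4 h VAV3 0.30 against knockout control and 0.37 against parental 4 h, for knockout control against parental control chr21:37522269-37553894 0.37, and for knockout 2 h against parental 2 h CCRL2 0.22 and TGFBR2 0.30. Ranked by fold, ETV6 had −0.34 for parental 4 h against 2 h and RHOH −1.16 for knockout 2 h against control. At −log10 q of at least 5, knockout 2 h against control had TOX −0.17 and LAIR2 0.20, knockout control against parental control had chr21:37522269-37553894 0.23 and PAG1 0.23, and knockout 2 h against parental 2 h had CCRL2 1.01. The cause was not tested.

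No paired analysis was possible because each group is 1 library, so there was none to leave out, and no difference here can be set against replicate error. Covered length was read from lists of unequal background pileup, and that of knockout CPT 4 h, the lowest at 0.168, limits every value drawn from this library.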
